A study of Mus musculus with 18 samples.

Results

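The genes described here are 10 genes of DNA end joining in mouse mammary epithelium: Polq, Parp1, Lig3 and Xrcc1 of the alternative, polymerase theta route, Xrcc5, Xrcc6, Prkdc, Lig4 and Xrcc4 of the classical route, and Trp53bp1, which steers breaks towards end joining. They were chosen by name, as rows of the gene count table whose Entrez identifiers carry these symbols. All 10 were found among the 27179 genes of the table, and all 10 were among the 16466 genes that passed the filter on low counts. Bulk RNA was sequenced from 3 populations of mammary epithelial cells sorted by FACS: basal cells, luminal progenitors (LP) and mature luminal cells (ML). The tissue came from 3 individual knockout (KO) mice, which carried MMTV-cre (T/+) and in which Brca2 was delta/delta and Trp53 was delta/+, and from 3 individual wildtype (WT) mice. All mice were female and 14 weeks old, and each of the 6 groups held 3 libraries. By this genotype both genes are altered in the KO mice, so the effects of the 2 losses cannot be told apart. Cre is driven by the mouse mammary tumour virus promoter, and the share of sorted cells that had recombined was not measured here. The strain field of the labels reads the same for KO and WT libraries, MMTVcre Brca2(fl/fl) Trp53(fl/+), and the titles write knockdown where the genotype field writes KO; the groups follow the genotype and the titles.

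A DNA double-strand break is repaired either by homologous recombination, which needs Brca2 and a sister chromatid, or by joining the ends. In classical end joining the Ku heterodimer of Ku80 (Xrcc5) and Ku70 (Xrcc6) binds the ends and recruits the DNA-dependent kinase (Prkdc), and ligase IV (Lig4) with its partner Xrcc4 seals them. In alternative end joining, resected ends are paired at short stretches of matching bases and extended by polymerase theta (Polq), with Parp1 and the ligase III and Xrcc1 pair among its known factors. Cells without homologous recombination rely on these routes, and loss of Polq or inhibition of Parp1 is known to harm Brca-deficient cells.

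The libraries held between 5.97 M and 39.19 M counted reads (1 M is 1000000 reads), and the 3 LP KO libraries (22.42 M to 32.72 M) were all deeper than the 3 LP WT libraries (9.29 M to 16.17 M). Trp53 was lower in KO cells of every population, with 7.25 to 9.05 counts per 1000000 reads of TMM-scaled library size (CPM) in LP KO libraries against 67.1 to 150 CPM in LP WT libraries (log2 difference -3.60, adjusted p = 5.3e-06). The difference was -1.72 (SE 0.33) in basal cells and -1.57 (SE 0.33) in ML. As estimates, all 3 lie beyond the fall that loss of 1 of 2 copies alone would give if the level followed copy number. Whether they differ from that fall by more than their error was not tested, nor was any reason. Whole-gene counts of Brca2 did not differ past the threshold (adjusted p between 0.51 and 0.84) and do not test for the deletion of part of the gene. Each adjusted p comes from the quasi-likelihood test of edgeR, with Benjamini-Hochberg adjustment over all tested genes and a threshold of 0.05. By the ranges of summed markers each sort lay where its label puts it, but ML KO libraries carried more of other epithelial markers. Their 7 LP markers summed to 509 to 1660 CPM, against 145 to 223 CPM in ML WT libraries. Their 8 basal markers summed to 799 to 957 CPM, against 312 to 560 CPM in ML WT libraries, and their 7 ML markers to 1223 to 4255 CPM, against 6534 to 8296 CPM. The highest LP sum and the lowest ML sum were those of the same library, ML KO 1 (1660 and 1223 CPM). It was also the shallowest KO library, at 8.76 M. In basal cells the ML markers summed to 79.8 to 159 CPM in KO libraries, against 31.2 to 54.7 CPM in WT libraries. The 6 fibroblast markers there summed to 420 to 567 CPM in KO libraries, against 344 to 385 CPM in WT libraries, and the basal markers to 12953 to 15977 CPM, against 16435 to 19099 CPM. In LP the ML markers summed to 379 to 559 CPM in KO libraries, against 592 to 929 CPM in WT libraries. The third LP KO library also stood apart. Its 9 immune markers summed to 39.1 CPM, beside 8.76 and 4.85 CPM in the other LP KO libraries and at most 4.35 CPM in LP WT libraries. It held the lowest LP KO values of Polq, Parp1, Lig3, Xrcc5, Prkdc, Lig4 and Trp53bp1, and the highest of Xrcc1, Xrcc6 and Xrcc4. The part of these markers in the values below was not tested. In bulk RNA, fewer cells of a type and less RNA per cell cannot be told apart. In LP, the log2 change between KO and WT also ran with gene length (Spearman rho -0.26 across 16466 genes), which was not so in basal (-0.04) or ML (0.05) cells.

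Few of the 10 genes differed between the genotypes by the test used. Past the threshold, KO and WT differed for 0 of 10 genes in basal cells, where 3.15% of all tested genes passed. They differed for 1 of 10 in LP, where 14.9% of all genes passed, and for 0 of 10 in ML, where 15.2% passed. The gene that passed was Xrcc5, which was higher in LP KO cells. At an unadjusted p under 0.05 the same edgeR test gave 1, 4 and 2 of the 10 genes in basal cells, LP and ML. That was beside 1912, 5018 and 4836 of the 16466 tested genes. DESeq2 called 0, 2 and 1 of the 10 genes, beside 694, 3102 and 3085 of all tested genes. Limma voom called 0, 1 and 0 of the 10, beside 387, 2197 and 2299 of all. The median log2 change of the 10 genes was -0.05, 0.07 and -0.07 in basal cells, LP and ML, beside -0.02, 0.02 and 0.02 for all tested genes. Between cell populations 2 or 3 of the 10 genes passed in each comparison, beside 15.9% to 54.5% of all tested genes. The share of the 10 genes was below that of all genes in every such comparison but LP against ML in KO mice. Xrcc5 passed the threshold in all 6 of the comparisons between populations.

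**Figure D1:**
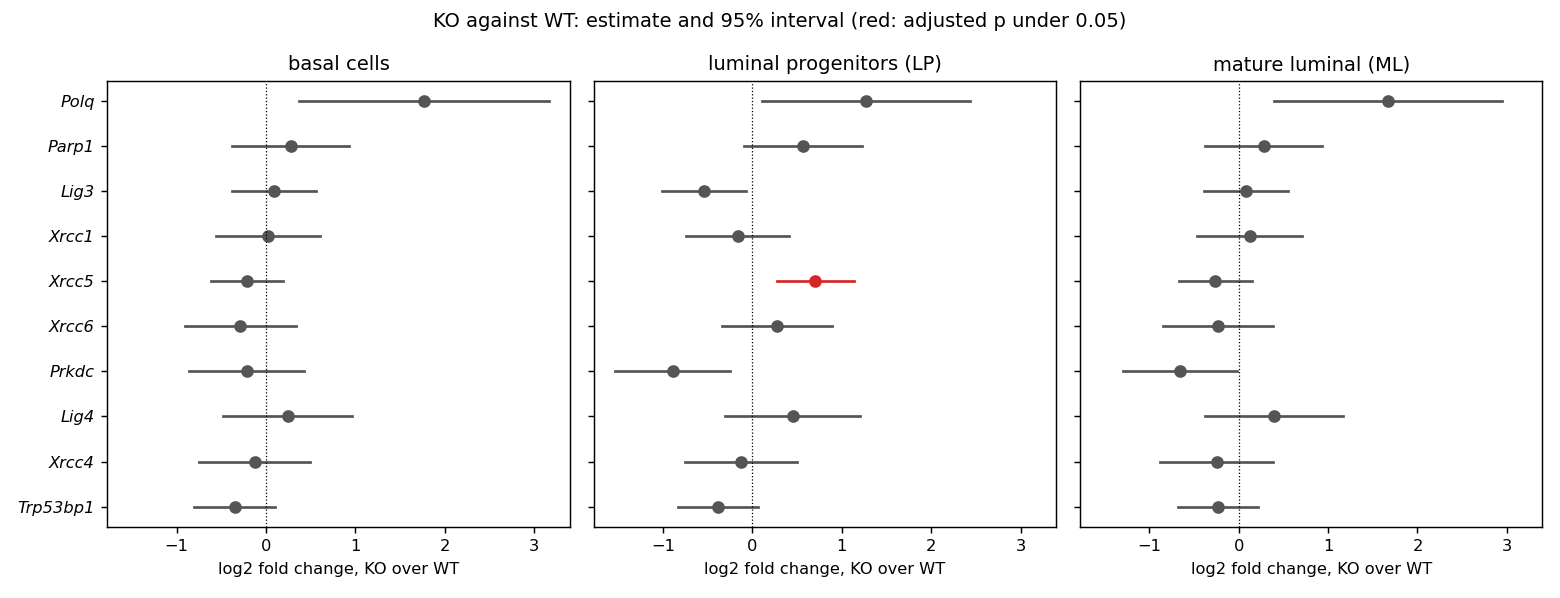
Log2 change between KO and WT (x axis) of each of the 10 genes (rows) in basal cells, LP and ML, with 95% intervals of the edgeR fit and 3 libraries per group. The Xrcc5 interval in LP (0.27 to 1.13) and the Polq intervals lie to the right of 0, and the Prkdc intervals in LP and ML and the Lig3 interval in LP lie to the left; of these values only Xrcc5 in LP passed the threshold after adjustment.

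Polq encodes DNA polymerase theta and lies on chromosome 16 (Entrez 77782, positions 37011741 to 37095419 of GRCm38, the build called mm10, plus strand), with no other annotated gene overlapping it. Its promoter, from 250 bases before to 50 bases after the RefSeq start site, is shown because Polq is the defining gene of the alternative route, and it is read on the plus strand of chr16:37011536-37011835. Capitals mark matches to TTTGAA, the cell cycle homology region motif, and to GCGGGAA, an E2F motif; TTCAAA is TTTGAA on the opposite strand.
Polq: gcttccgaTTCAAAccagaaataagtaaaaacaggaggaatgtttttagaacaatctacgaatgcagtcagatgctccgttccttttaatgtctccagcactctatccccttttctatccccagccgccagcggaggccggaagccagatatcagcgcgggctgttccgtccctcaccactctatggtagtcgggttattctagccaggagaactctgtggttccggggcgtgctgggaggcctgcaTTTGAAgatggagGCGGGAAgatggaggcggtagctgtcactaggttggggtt
TTTGAA was found 3 bases before the start site and, on the opposite strand, 242 bases before it, and GCGGGAA began at position 11, counting the start site as 1. On either strand, TTTGAA was in 17.89% and GCGGGAA in 4.6% of 32851 RefSeq promoters of the same length. A match of letters is no evidence that a factor binds there.

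Polq was the least abundant of the 10 genes per length of transcript in all 6 groups, with a mean RPKM (CPM per kilobase of transcript) between 0.11 in basal WT cells and 1.12 in LP KO cells. In basal cells it had 1.68, 4.47 and 3.03 CPM in the KO libraries, against 0.572, 1.04 and 1.22 CPM in the WT libraries. All 3 KO libraries were above all 3 WT libraries, as for 10.8% of all tested genes. The log2 difference was 1.77 (SE 0.67, 95% interval 0.37 to 3.16) and did not pass the adjusted threshold (adjusted p = 0.23). In LP it had 11.1, 14.0 and 3.56 CPM in the KO libraries, against 2.10, 3.78 and 5.52 CPM in the WT libraries. The LP groups overlapped, since the third KO library lay between the first and the second WT library. The log2 difference was 1.27 (SE 0.56, adjusted p = 0.13). In ML it had 4.46, 9.11 and 3.68 CPM in the KO libraries, against 0, 2.00 and 2.61 CPM in the WT libraries. The library at 0 was the shallowest, and a count of 0 there allows up to 0.475 CPM. All 3 ML KO libraries were again above the WT libraries, as for 21.6% of all tested genes, with a log2 difference of 1.67 (SE 0.61, 95% interval 0.40 to 2.95, adjusted p = 0.071). The ML difference passed the threshold in DESeq2 (adjusted p = 0.028) and with all libraries thinned to one depth (adjusted p = 0.045), and the basal one in a fit on the 6 basal libraries with replicate number as a block (adjusted p = 0.049). In the other 13 of 15 alternatives the ML difference did not pass, nor did the basal one in the other 14 of 15 (adjusted p up to 0.29 and 0.74). The LP difference passed in 0 of 15 alternatives. It was 1.66 (adjusted p = 0.055) without the third LP KO library. With each LP library left out in turn it lay between 0.87 and 1.71 (adjusted p = 0.055 to 0.34).

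Parp1, the break sensor that builds poly(ADP-ribose) chains, was the most abundant of the 10 genes per length in LP of both genotypes, at a mean RPKM of 30.6 in KO and 20.6 in WT cells. It had 127, 124 and 100.4 CPM in the LP KO libraries, against 37.3, 82.1 and 117 CPM in the LP WT libraries. The WT libraries spread over a wider range than the KO libraries, and the groups overlapped. The log2 difference was 0.57 (SE 0.31, adjusted p = 0.23), and it passed only without the third LP WT library (0.99, adjusted p = 0.048). Lig3, the ligase of this route, had 51.0, 49.9 and 38.5 CPM in the LP KO libraries, against 43.2, 73.9 and 85.4 CPM in the LP WT libraries. The first WT library lay among the KO libraries and the other 2 above them. The log2 difference was -0.54 (SE 0.23, adjusted p = 0.11), and it passed without that first WT library (-0.78, adjusted p = 0.024). Removing length and GC trends gave -0.29 (adjusted p = 0.42). Xrcc1, the scaffold that holds ligase III, ranged over 28.6 to 44.2 CPM in LP KO against 25.4 to 53.5 CPM in LP WT libraries, and its groups overlapped in all 3 populations. In basal cells and ML the log2 differences of Parp1, Lig3 and Xrcc1 lay between 0.02 and 0.28, with adjusted p from 0.60 to 0.996. Reads of Parp1 may be shared with the overlapping long noncoding gene Gm31986 and those of Lig3 with Rffl, since it is not stated whether the counting used strand. The same limit holds for Xrcc6, Prkdc and Trp53bp1, whose overlapping genes are named below.

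Xrcc5, which encodes Ku80, differed between all 3 populations in both genotypes by the test used. It lies on chromosome 1 (Entrez 22596, positions 72307417 to 72394953 of GRCm38, plus strand) and Xrcc6, which encodes its partner Ku70, on chromosome 15 (Entrez 14375, positions 81987833 to 82040085, plus strand), where it overlaps Desi1. Their proteins work as a pair, and both promoters are shown because the transcripts were distributed differently over the populations. The windows are chr1:72307171-72307470 and chr15:82016119-82016418, both plus strand, and capitals mark CCAAT on the opposite strand (ATTGG) and GCGGGAA. The Xrcc6 window lies inside the positions given for that gene, not at their start, and other start sites were not examined.
Xrcc5: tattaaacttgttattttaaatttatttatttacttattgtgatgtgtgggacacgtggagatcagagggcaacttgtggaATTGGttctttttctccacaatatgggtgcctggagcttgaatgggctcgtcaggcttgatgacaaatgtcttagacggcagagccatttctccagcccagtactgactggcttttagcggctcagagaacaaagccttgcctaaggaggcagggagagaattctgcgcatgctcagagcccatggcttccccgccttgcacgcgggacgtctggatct
Xrcc6: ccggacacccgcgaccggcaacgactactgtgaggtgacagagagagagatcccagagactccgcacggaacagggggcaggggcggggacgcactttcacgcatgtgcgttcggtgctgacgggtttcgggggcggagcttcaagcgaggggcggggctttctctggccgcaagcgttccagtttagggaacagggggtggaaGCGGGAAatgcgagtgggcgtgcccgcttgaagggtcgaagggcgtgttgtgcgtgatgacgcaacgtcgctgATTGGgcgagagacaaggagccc
The Xrcc5 window held 1 CCAAT match, on the opposite strand 169 bases before the start site, and no GCGGGAA. The Xrcc6 window held GCGGGAA 46 bases before the start site and CCAAT on the opposite strand at position 28. CCAAT, on either strand, was in 37.41% of the 32851 promoters. The Xrcc6 window had 30 CpG dinucleotides and a GC content of 64.33%, and the Xrcc5 window had 9 and 48%.

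In LP, Xrcc5 had 16.3, 17.2 and 14.1 CPM in the KO libraries, against 9.75, 10.6 and 9.01 CPM in the WT libraries. All LP KO libraries were above all LP WT libraries, a no-overlap pattern in the higher direction that 17.7% of all tested genes shared. The rise was 0.70 on the log2 scale (SE 0.21, 95% interval 0.27 to 1.13), or 1.63-fold, with an adjusted p of 0.027. It did not pass in limma voom (adjusted p = 0.056), in fits on the 6 LP libraries alone (0.17 without and 0.14 with replicate number as a block), or without any one of the LP libraries KO 1, KO 2, WT 1, WT 2 and WT 3 (0.063 to 0.070), although the log2 difference stayed between 0.64 and 0.78 when a library was left out. The 8 basal markers summed to 145 to 329 CPM in LP KO against 278 to 421 CPM in LP WT libraries, most of it Itga6. Of the 8, Krt14 rose (34.7 ± 15.9 CPM in LP KO against 12.6 ± 7.0 CPM in LP WT cells, SD, n = 3 each, adjusted p = 0.034) and Oxtr fell (adjusted p = 0.0081). Both genes are named after their values were seen, and the part of basal markers in the Xrcc5 difference was not tested.

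In basal cells Xrcc5 had 52.97, 53.7 and 48.9 CPM in the KO libraries, against 52.9, 65.2 and 62.4 CPM in the WT libraries. In ML it had 20.4, 26.5 and 24.7 CPM in the KO libraries, against 26.0, 31.4 and 28.7 CPM in the WT libraries. In both populations the groups overlapped and the KO mean was the lower one, by -0.21 (adjusted p = 0.80) and -0.26 (adjusted p = 0.40) on the log2 scale. The KO effect on Xrcc5 was larger in LP than in ML by 0.96 on the log2 scale (SE 0.28, 95% interval 0.37 to 1.56, adjusted p = 0.048). It was the 1 of 10 genes that passed in that test, where 6.37% of all genes did, and the call was lost in limma voom (adjusted p = 0.079), with RLE scaling, with no filter on low counts, with libraries thinned to one depth, and when any of 11 of the 12 LP and ML libraries was left out, the exception being LP KO 3. Between LP and basal cells the KO effect differed by 0.92 (SE 0.28, adjusted p = 0.14). In that test 0 of 10 genes passed in edgeR, beside 1.09% of all genes. At an unadjusted p under 0.05 there was 1 of 10, beside 2305 of the 16466 tested genes. DESeq2 called 1 and limma voom 0, beside 559 and 85 of all genes. Between ML and basal cells 0 of 10 passed in edgeR, beside 5.53% of all genes. At an unadjusted p under 0.05 there were 0, beside 2847 of the 16466. DESeq2 and limma voom called 0, beside 1437 and 756 of all genes. The higher basal and LP marker sums of ML KO libraries go with the ML values, and their part in these differences was not tested.

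**Figure D2:**
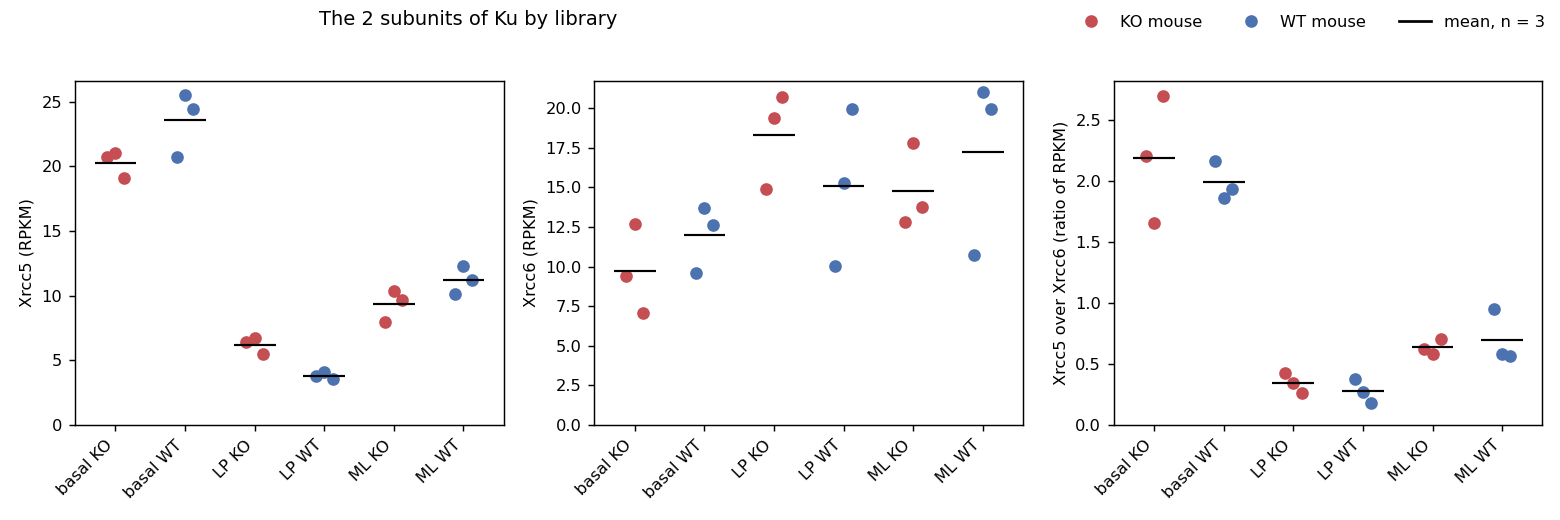
Levels of Xrcc5 and Xrcc6 (RPKM) and their ratio in each of the 18 libraries, by population, with KO left of WT; points are libraries and bars are group means. The ratio lies above 1 in every basal library (1.66 to 2.70 in KO, 1.86 to 2.16 in WT) and below 1 in every LP and ML library.

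Per length of transcript, Xrcc5 was the most abundant of the 10 genes in basal cells, with a mean RPKM of 20.3 ± 1.0 in KO and 23.5 ± 2.5 in WT cells (SD, n = 3 each). Its rank was 7 of 10 in LP, at 6.20 ± 0.63 RPKM in KO and 3.82 ± 0.30 RPKM in WT cells. Xrcc5 was lower in LP than in basal cells by -1.71 on the log2 scale in KO mice (adjusted p = 7.8e-07) and by -2.63 in WT mice (adjusted p = 5.7e-09). It was lower in ML than in basal cells by -1.11 in KO mice (adjusted p = 1.5e-04) and by -1.07 in WT mice (adjusted p = 1.4e-04). These 4 differences passed in every alternative computed. Between the luminal populations, Xrcc5 was lower in LP than in ML by -0.60 in KO mice (adjusted p = 0.042) and by -1.56 in WT mice (adjusted p = 1.1e-05). The KO difference was lost without any one of the KO libraries LP 1, LP 2, LP 3, ML 2 and ML 3 (adjusted p = 0.058 to 0.19), with no filter on low counts (0.092) and with libraries thinned (0.098). The order basal, ML, LP thus held in both genotypes, with LP and ML closest in KO mice.

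Xrcc6 did not follow Xrcc5. In LP it had 31.4, 40.9 and 43.7 CPM in the KO libraries, against 21.2, 32.2 and 42.2 CPM in the WT libraries. The groups overlapped, and the log2 difference was 0.27 (SE 0.29, adjusted p = 0.57). The basal values were 19.8, 26.8 and 15.0 CPM in the KO libraries, against 20.2, 29.0 and 26.7 CPM in the WT libraries, and in ML it ranged over 27.1 to 37.6 CPM in KO and 22.6 to 44.5 CPM in WT libraries. Xrcc6 was higher in LP than in basal cells in KO mice by 0.90 (SE 0.30, adjusted p = 0.017). That call was lost without any one of the libraries basal KO 1, basal KO 3 and LP KO 3 (adjusted p = 0.054 to 0.083), and with length and GC trends removed (0.61, adjusted p = 0.087). In WT mice the same difference was 0.34 (adjusted p = 0.39). The Xrcc5 to Xrcc6 ratio of RPKM averaged 0.347 ± 0.081 in LP KO and 0.276 ± 0.102 in LP WT cells, 0.637 ± 0.061 in ML KO and 0.698 ± 0.217 in ML WT cells, and 2.19 ± 0.52 in basal KO and 1.99 ± 0.16 in basal WT cells (SD, n = 3 each). The ratio overlapped between genotypes in each population, and the basal range lay above the LP and ML ranges in both genotypes.

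Prkdc encodes the catalytic subunit of the DNA-dependent kinase and lies on chromosome 16 (Entrez 19090, positions 15637444 to 15842239 of GRCm38), where the pseudogene Gm52255 overlaps it. In LP it had 21.6, 27.6 and 9.85 CPM in the KO libraries, against 29.6, 39.2 and 40.6 CPM in the WT libraries. All LP KO libraries were below all LP WT libraries, as for 13.4% of all tested genes. The log2 difference was -0.89 (SE 0.31, 95% interval -1.54 to -0.25, adjusted p = 0.057). It passed in DESeq2 (adjusted p = 0.035), limma voom (0.048), RLE scaling (0.049), with libraries thinned to one depth (0.038) and without the second LP KO library (-1.22, adjusted p = 0.021). Without the third LP KO library it was -0.57 (adjusted p = 0.21). With the trends in gene length and GC content removed it was -0.33 (adjusted p = 0.45), and Prkdc, at 12674 bases, is the longest of the 10 transcripts. In ML it had 31.0, 51.6 and 38.8 CPM in the KO libraries, against 55.3, 62.3 and 74.9 CPM in the WT libraries. Again all KO libraries were below all WT libraries, as for 16.2% of all genes, with a log2 difference of -0.66 (SE 0.31, adjusted p = 0.15). That difference was -0.96 (adjusted p = 0.016) with length and GC trends removed. The basal values were 24.8, 30.1 and 29.4 CPM in the KO libraries, against 22.4, 38.6 and 37.0 CPM in the WT libraries, which overlapped.

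Across populations the group mean of Prkdc was highest in ML. Prkdc was lower in LP than in ML by -1.05 in KO mice (adjusted p = 0.025) and by -0.81 in WT mice (adjusted p = 0.048), and higher in ML than in basal cells by 0.98 in WT mice (adjusted p = 0.011). In KO mice the ML excess over basal cells was 0.53 as counted and did not pass (adjusted p = 0.18). The KO difference between LP and ML was lost without LP KO 3, ML KO 2 or ML KO 3 (adjusted p = 0.059 to 0.15) and with length and GC trends removed (-0.57, adjusted p = 0.15). The WT difference between LP and ML was lost without any one of its 6 libraries (adjusted p = 0.054 to 0.16) and in 5 other alternatives (0.052 to 0.063). The WT difference between ML and basal cells was lost without basal WT 1 or ML WT 3 (adjusted p = 0.063 and 0.052). With length and GC trends removed, a setting added after seeing the data, the ML excess over basal cells was 1.18 in KO mice (adjusted p = 0.0016) and 2.02 in WT mice (adjusted p = 5.4e-06). On that scale LP was 0.82 above basal cells (adjusted p = 0.019) and lower than ML, by -1.20, (adjusted p = 0.0018) in WT mice, and in KO mice the LP to basal difference turned sign, being -0.51 as counted and 0.61 (adjusted p = 0.065) with the trends removed.

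Lig4 and Xrcc4 form the ligase of the classical route. Lig4 had 5.65, 10.1 and 6.64 CPM in the ML KO libraries, against 4.75, 6.51 and 5.90 CPM in the ML WT libraries. The basal values were 15.4, 15.1 and 12.4 CPM in the KO libraries, against 16.7, 9.36 and 10.3 CPM in the WT libraries. The genotypes overlapped in both populations. Lig4 was lower in ML than in basal cells by -0.91 in KO mice (SE 0.35, adjusted p = 0.045) and by -1.06 in WT mice (SE 0.37, adjusted p = 0.020). The KO call was lost without any one of basal KO 1, 2 and 3 and ML KO 1 and 3 (adjusted p = 0.054 to 0.14), with libraries thinned to one depth (0.11), in the legacy quasi-likelihood fit (0.059) and with length and GC trends removed (-0.77, adjusted p = 0.078). The WT call was lost without basal WT 1, ML WT 1 or ML WT 3 (adjusted p = 0.055 to 0.12). In LP, Lig4 ranged over 5.63 to 12.7 CPM in KO and 4.003 to 9.13 CPM in WT libraries (log2 difference 0.45, adjusted p = 0.43). Xrcc4 was nearly level, with group means between 10.6 and 12.6 CPM over all 6 groups. Its log2 differences between genotypes lay between -0.25 and -0.13, with adjusted p of 0.63 or more, and it passed in none of the 12 comparisons.

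Trp53bp1 encodes 53BP1, which shields broken ends from resection; it overlaps Tubgcp4 and Map1a on chromosome 2. In basal cells it had 98.6, 97.9 and 99.9 CPM in the KO libraries, against 114, 127 and 138 CPM in the WT libraries. All basal KO libraries were below all basal WT libraries, as for 6.82% of all tested genes, and the KO libraries lay close to each other. The log2 difference was -0.35 (SE 0.22, 95% interval -0.80 to 0.10, adjusted p = 0.63). In LP it had 116, 110 and 70.0 CPM in the KO libraries, against 115, 149 and 122 CPM in the WT libraries, and in ML 144, 114 and 142 CPM in the KO libraries, against 160, 185 and 127 CPM in the WT libraries. Those groups overlapped, with log2 differences of -0.38 (adjusted p = 0.24) and -0.24 (adjusted p = 0.50). Between populations Trp53bp1 passed in 0 comparisons as counted. With length and GC trends removed it was higher in ML than in basal cells by 0.81 in KO mice (adjusted p = 7.6e-04) and 0.97 in WT mice (adjusted p = 8.1e-05), higher in LP than in basal cells by 0.68 in KO mice (adjusted p = 0.0028), and lower in LP than in ML by -0.59 in WT mice (adjusted p = 0.0098). Its transcript model is 7711 bases long.

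**Figure D3:**
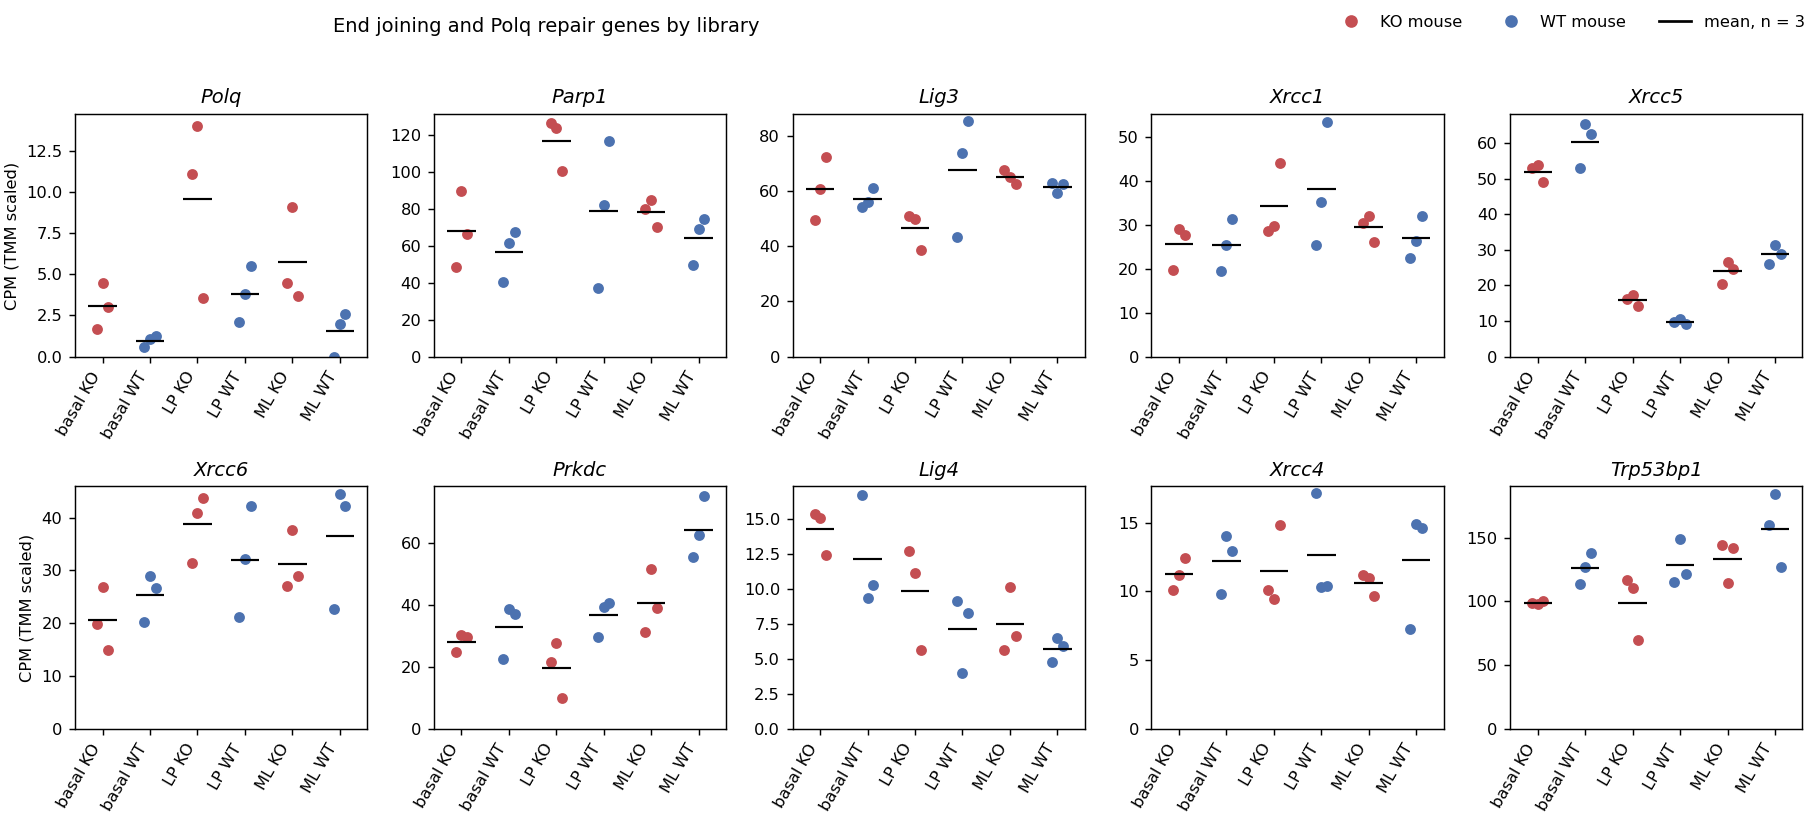
TMM-scaled CPM of each of the 10 genes (panels, own y axes) in all 18 libraries by population, with KO left of WT; points are libraries and bars are group means of 3. Xrcc5 steps down from basal cells to ML and LP in both genotypes, and the KO group mean of Polq is above the WT mean in all 3 populations while its LP groups overlap.

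Polq also differed between populations. It was higher in LP than in basal cells by 1.60 in KO mice (SE 0.54, adjusted p = 0.020), where the groups overlapped, and by 2.10 in WT mice (SE 0.69, adjusted p = 0.021). The KO call was lost without basal KO 1, basal KO 3 or LP KO 2 (adjusted p = 0.051 to 0.10), in limma voom (0.077) and in the legacy fit (0.062), and the WT call in limma voom (0.11) and without basal WT 1, basal WT 2 or LP WT 3 (adjusted p = 0.056 to 0.15). Between LP and basal cells 3 of 10 genes passed in KO mice (Polq and Xrcc6 higher, Xrcc5 lower), beside 45% of all tested genes. In WT mice 2 of 10 passed (Polq higher, Xrcc5 lower), beside 37.1% of all genes. Between ML and basal cells 2 of 10 passed in KO mice (Xrcc5 and Lig4 lower) beside 38.5%, and 3 of 10 in WT mice (Prkdc higher, Xrcc5 and Lig4 lower) beside 54.5%. Between LP and ML 2 of 10 passed in KO mice beside 15.9% and 2 of 10 in WT mice beside 33.7%, Xrcc5 and Prkdc in each case, both lower in LP. In 5 of these 6 comparisons the share of the 10 genes was below that of all genes, and for LP against ML in KO mice it was near it. With mouse as a block, since each mouse gave all 3 populations, Xrcc1 also passed between LP and basal cells in WT mice (0.56, adjusted p = 0.048), Parp1 between LP and basal cells in KO mice (0.80, adjusted p = 0.0062) and Xrcc6 between ML and basal cells in KO mice (0.61, adjusted p = 0.031).

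Polq was also set beside the genes whose levels were most like its own. Among 12712 genes with a mean of at least 2 CPM, the 5 whose log CPM correlated most closely with Polq over the 18 libraries were Pole, the catalytic subunit of polymerase epsilon (Pearson r = 0.94), E2f1 (0.92), Srl, which encodes sarcalumenin (0.92), Fbxo5 (0.90) and Cenpw (0.90). The libraries share mice, and they differ in depth and genotype, so these values describe the libraries only. Among the other 9 genes Parp1 was correlated with Polq at 0.73. The 16 genes of a proliferation list, which also holds E2f1, summed to 530 to 973 CPM in basal KO libraries, against 277 to 335 CPM in basal WT libraries. They summed to 981 to 1661 CPM in LP KO libraries, against 351 to 739 CPM in LP WT libraries, and to 568 to 1149 CPM in ML KO libraries, against 192 to 332 CPM in ML WT libraries. The sums did not overlap between genotypes in any population, and 9, 10 and 12 of the 16 genes rose in basal cells, LP and ML while 0 fell, beside 3.15%, 14.9% and 15.2% of all tested genes called in either direction. Per 1000 CPM of that sum, Polq had 3.16 to 4.73 CPM in basal KO libraries, against 1.84 to 4.41 CPM in basal WT libraries. In LP it had 3.63 to 8.45 CPM in KO libraries, against 5.02 to 10.8 CPM in WT libraries, and in ML 4.52 to 7.93 CPM in KO libraries, against 0 to 10.5 CPM in WT libraries. On this scale the genotypes overlapped in all 3 populations. The part of the proliferation genes in the Polq values was not tested.

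**Figure D4:**
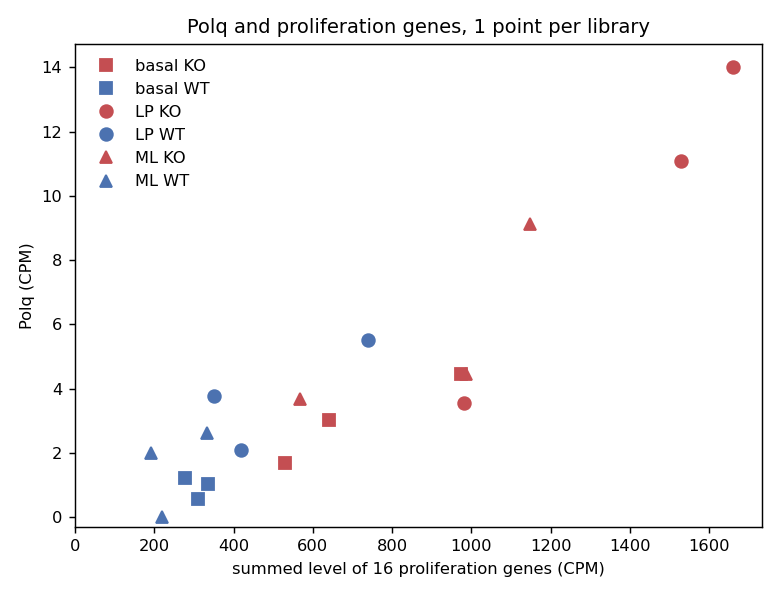
Polq CPM (y axis) against the summed CPM of 16 proliferation genes (x axis) in the 18 libraries, with red for KO and blue for WT and 1 marker shape per population, each point 1 library. Polq is highest, at 11.1 and 14.0 CPM, in the 2 LP KO libraries with the highest sums, 1529 and 1661 CPM.

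Other genes of these routes were read from lists. Of 19 further alternative end joining genes, 1 rose and 0 fell in basal KO cells, 1 rose and 1 fell in LP, and 1 rose and 0 fell in ML, beside 3.15%, 14.9% and 15.2% of all tested genes called in these populations. The riser in basal cells and ML was Exo1, an exonuclease that resects broken ends, at 3.80 ± 2.98 CPM in basal KO against 0.171 ± 0.116 CPM in basal WT cells (SD, n = 3 each; log2 difference 4.63, adjusted p = 0.0030). In ML it was 8.63 ± 4.18 CPM in KO against 0.890 ± 0.415 CPM in WT cells (log2 difference 3.07, adjusted p = 0.0028). In LP Rad50, a subunit of the complex that begins resection, fell by 1.11 on the log2 scale (adjusted p = 0.019), and Rhno1, a partner of the checkpoint clamp, rose by 1.02 on that scale (adjusted p = 0.026). The Rad50 call was lost with length and GC trends removed and without LP KO 3, LP WT 2 or LP WT 3 (adjusted p = 0.064 to 0.10), and the Rhno1 call without LP KO 3 or LP WT 2 (adjusted p = 0.10 and 0.14); both were also lost in a fit on the 6 LP libraries alone (0.071 and 0.11). The list's median log2 change was 0.24, 0.22 and -0.17 in basal cells, LP and ML. Of 7 further classical end joining genes 6 were tested, and 0 passed in any population in edgeR, DESeq2 or limma voom. At an unadjusted p under 0.05 there were 0, 1 and 0 in basal cells, LP and ML, beside 1912, 5018 and 4836 of all 16466. The median log2 change of the 6 genes was 0.15, 0.29 and -0.42.

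The 53BP1 pathway list gave 12 tested genes besides Trp53bp1. In basal KO cells 0 rose and 1 fell, in LP 3 rose and 1 fell, and in ML 1 rose and 1 fell, against 3.15%, 14.9% and 15.2% of all tested genes, with list medians of -0.20, 0.00 and -0.18. Mdc1, which binds phosphorylated H2AX at breaks, had 64.5 ± 18.9 CPM in LP KO against 131 ± 9 CPM in LP WT cells (log2 difference -1.02, adjusted p = 0.0046). In basal cells it had 105 ± 18 CPM in KO against 196 ± 22 CPM in WT cells (log2 difference -0.90, adjusted p = 0.024), a call that was lost without any one of 5 of the 6 basal libraries (adjusted p = 0.055 to 0.13), the exception being basal KO 1, and in a fit on the 6 basal libraries alone (0.055). H2ax, the histone variant itself, rose in LP to 53.5 ± 12 CPM in KO against 15.99 ± 0.87 CPM in WT cells (log2 difference 1.74, adjusted p = 1.6e-04). It rose in ML to 27.7 ± 5.0 CPM in KO against 15.5 ± 0.5 CPM in WT cells (log2 difference 0.84, adjusted p = 0.025), and the ML call was lost without ML KO 2 or any 1 ML WT library (adjusted p = 0.058 to 0.12). Dynll1, a light chain that binds 53BP1, rose in LP by 1.09 on the log2 scale (adjusted p = 0.0047). In a fit on the 6 LP libraries alone, Mdc1 (adjusted p = 0.062) and Dynll1 (0.056) did not pass. Mad2l2, a subunit of shieldin, fell in ML by 0.97 on the log2 scale (adjusted p = 0.038), and that call was lost without any one of 5 of the 6 ML libraries (adjusted p = 0.064 to 0.22), the exception being ML WT 1, and with no filter on low counts, thinned libraries or the legacy fit (0.053 to 0.063).

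Of 27 homologous recombination and Fanconi genes, 6 rose and 0 fell in basal KO cells, 5 rose and 1 fell in LP, and 8 rose and 1 fell in ML, against the same shares of all tested genes. In basal cells DESeq2 called 8 higher and limma voom 1, with 0 lower in each, beside 637 and 349 of all tested genes called higher. The median log2 change of the 27 genes was 0.85, 0.31 and 0.31. Rad54l, a DNA translocase of homologous recombination, rose by 1.84 on the log2 scale in both LP (adjusted p = 0.0053) and ML (adjusted p = 0.0050), the ML call being lost in a fit on the 6 ML libraries with replicate number as a block (0.059). The summed proliferation genes given with Polq were higher in the same libraries, and their part in these list counts was not tested.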

How the data were processed

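RNA was extracted with the miRNeasy micro kit and libraries were made with the Illumina TruSeq RNA v2 protocol, per the labels' protocols. The values are raw counts per Entrez gene, made with featureCounts on mm10 per the submitters' processing notes; which aligner was used, and whether counting used strand, is not given. The deposited count table and the 18 single-library count files held equal values. Counts of genes without a symbol made up 1.6% of reads.

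Counts were analysed in R 4.3.3 with edgeR 4.0.16: filterByExpr, TMM scaling, 1 mean per group over all 18 libraries, robust quasi-likelihood test, Benjamini-Hochberg adjustment over 16466 genes. 12 comparisons were made: KO against WT in 3 populations, population pairs within each genotype, and the differences in KO effect. The biological coefficient of variation was 33.3%. CPM were computed on TMM-scaled library sizes, RPKM from the lengths in the files. The 95% intervals are from the fit; the floor of a library at 0 is 3 counts and covers counting error only. Replicates are individual mice. Libraries of the same mouse deviated together in 17 of 18 pairs (r over 0.1), so mouse as a block was an alternative. Libraries of KO and WT mice sharing a number did so in 4 of 9 pairs (r from -0.10 to 0.26). These 9 pairs are too few to tell whether a number marks a shared batch, and replicate number as a block was an alternative. Alternatives were RLE scaling, no filter, DESeq2 1.42.0, limma voom 3.58.1, thinning to 5.97 M counts, a fit on 6 libraries, replicate blocks and leaving out each library. Removing trends in length and GC content (GC known for 90.1% of genes, the others set to the median) and the legacy fit were added after seeing the data. The test was also run on simulated counts drawn with no effect of mouse, and the outcome is not given here. Promoters are from the RefSeq table of GRCm38.p6, which matched 9 of the 10 genes. Named genes of each list were the up to 3 with the smallest p among those past the threshold, except that 1 gene is not reported here. The 10 genes and the lists were chosen with earlier results of these data known; Shld3 and Pxip1 of the 53BP1 list matched no symbol in the table.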

Additional observations from a re-analysis of the deposited data

Results flagged for a closer look

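The KO effect on Xrcc5 passed a test of difference between LP and ML. The log2 difference between KO and WT was 0.70 in LP and -0.26 in ML, and the test of the difference between them gave 0.96 (SE 0.28, adjusted p = 0.048, edgeR's quasi-likelihood test). That call was lost in 15 of 20 alternatives, and the differences between LP and basal cells (0.92, adjusted p = 0.14) and between ML and basal cells (-0.05, adjusted p = 0.96) did not pass. All 3 LP KO libraries were above all 3 LP WT libraries, while the ML groups overlapped. ML KO libraries carried more of the basal and LP markers than ML WT libraries, and the part of this in the ML values was not tested.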

How the results depend on the processing

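The number of the 10 genes past the threshold between KO and WT in LP was 2 with RLE scaling, in DESeq2 and with thinned libraries, 0 in the fit on 6 libraries and 0 in that fit with replicate number as a block, and 0 to 1 when a library was left out. In basal cells it was 1 in the fit on 6 libraries with replicate number as a block, against 0 in that fit without the block, and in ML 1 in DESeq2, with thinned libraries and with length and GC trends removed. For LP against basal cells it was 1 in limma voom and 4 with length and GC trends removed in WT mice, and 1 to 4 without 1 library in both genotypes. For ML against basal cells in WT mice it was 6 with length and GC trends removed and 1 to 3 without 1 library. In KO mice it was 4 with those trends removed, 1 with thinned libraries, 1 in the legacy fit and 1 to 2 without 1 library. For LP against ML in WT mice it was 4 with those trends removed, 1 with RLE scaling, no filter, limma voom, thinned libraries or the legacy fit, and 1 without any 1 library. In KO mice it was 1 with no filter, thinned libraries or those trends removed, and 0 to 2 without 1 library. For the difference in KO effect between LP and ML it was 0 with RLE scaling, no filter, limma voom or thinned libraries, and 0 to 1 without 1 library. For that between LP and basal cells it was 1 in DESeq2, beside 559 of all genes. Of all genes, KO and WT in LP differed for 2473 with RLE scaling, 3102 in DESeq2 and 2240 with thinned libraries. In basal cells 549 passed with replicate number as a block. With length and GC trends removed, 2968 passed between KO and WT in ML and 6814 for LP against basal cells in WT mice. On that scale 9526 passed in WT and 6858 in KO mice for ML against basal cells. For LP against ML 5972 and 2661 passed.

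Some signs turned among values that were not called. Prkdc with length and GC trends removed was 0.61 for LP against basal cells in KO mice (-0.51 as counted) and 0.63 for the difference in KO effect between LP and ML (-0.23 as counted). Lig3 in ML was -0.11 with length and GC trends removed, where Brca2 was 0.0321 in LP and -0.0755 in ML. Without 1 library, Lig3 in basal cells spanned -0.0533 to 0.22, Xrcc1 in basal cells -0.14 to 0.19, Xrcc1 in LP -0.39 to 0.19, Xrcc4 in LP -0.36 to 0.15 and Brca2 in ML -0.16 to 0.80. The causes were not tested.

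With mouse as a block the counts were 4 and 3 for LP against basal cells in KO and WT mice, 3 and 3 for ML against basal cells, and 2 and 2 for LP against ML. Of all genes, 8455 and 7006, 7357 and 9608, and 3769 and 6556 passed in these comparisons. This block ended no call of the 10 genes. Polq had 0 to 503 reads per library. With libraries thinned to one depth, Polq passed in ML and Prkdc in LP between KO and WT, and calls of Lig4, Xrcc5 and Prkdc between populations were lost.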
